A study of Saccharomyces cerevisiae with 10 samples.

Results

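Messenger RNA was compared between heat-shocked and unheated cells of Z100, a strain of the budding yeast Saccharomyces cerevisiae that the labels call the adaptive strain and the series title describes as evolved under modest thermal stress. Z100 at 50 °C, after 1 h of heat shock (n = 3), was set against Z100 labelled 30 °C (n = 3), so 6 of the 10 libraries of the series carry the comparison. The other 4 libraries, XH7 at 50 °C (n = 2) and XH7 at 30 °C (n = 2), come from the strain that the labels call the control strain. They enter the estimate of the spread and a single closing comparison. No genotype beyond the strain name, no growth medium and no statement on whether Z100 is a single clone is given in the sources used here. The protocol text places unheated cultures in an ice-water mixture, so whether the cells labelled 30 °C were taken straight from a 30 °C culture cannot be told. Nothing in the labels says that replicates were separate cultures, so a p-value here reflects how far these libraries scatter, and part of that scatter may be technical.

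Of 6059 genes with deposited counts, all 6015 that passed the filter on low counts were described. A temperature above the growth range unfolds proteins, and budding yeast is known to answer with programmes that overlap in time. The heat shock factor Hsf1 drives chaperone genes, which refold, hold or disaggregate unfolded proteins. Msn2 and Msn4 drive a broad set of stress genes whenever protein kinase A activity drops. Rpn4 drives the proteasome, Hac1 the folding genes of the endoplasmic reticulum (ER), and genes for ribosome production, which PAC and RRPE promoter elements mark, are shut down. Gcn4 drives amino acid synthesis. Each of these factors has a short DNA motif that can be read in the promoters of its targets.

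Promoter stretches of 5 genes whose values are given below show these motifs. They are from the R64 reference genome, run from 300 to 91 bases before the start codon, and read 5′ to 3′ in the direction of the gene. Capitals mark the motif named with each gene.
HSP42, chrIV:806321-806530, plus strand, heat shock element and stress response element: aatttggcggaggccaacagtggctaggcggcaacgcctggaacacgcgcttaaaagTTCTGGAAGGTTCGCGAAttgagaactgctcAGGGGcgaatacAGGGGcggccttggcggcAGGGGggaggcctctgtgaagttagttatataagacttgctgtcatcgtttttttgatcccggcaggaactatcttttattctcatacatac
DDR2, chrXV:231846-232055, minus strand, stress response element: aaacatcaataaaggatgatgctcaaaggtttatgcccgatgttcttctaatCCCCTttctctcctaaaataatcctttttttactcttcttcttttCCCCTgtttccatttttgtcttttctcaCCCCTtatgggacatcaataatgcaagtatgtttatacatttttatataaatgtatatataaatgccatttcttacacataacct
PUP2, chrVII:999231-999440, minus strand, PACE: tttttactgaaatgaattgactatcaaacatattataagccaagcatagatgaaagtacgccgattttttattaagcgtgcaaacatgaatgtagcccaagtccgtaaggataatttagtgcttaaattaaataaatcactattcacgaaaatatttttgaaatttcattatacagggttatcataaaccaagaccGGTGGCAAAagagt
NOP1, chrIV:427064-427273, plus strand, PAC and RRPE: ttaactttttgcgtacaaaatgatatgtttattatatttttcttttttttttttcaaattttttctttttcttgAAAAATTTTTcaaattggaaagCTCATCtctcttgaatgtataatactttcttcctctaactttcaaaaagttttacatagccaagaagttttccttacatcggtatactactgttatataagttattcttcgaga
LEU9, chrXV:522727-522936, plus strand, Gcn4 site: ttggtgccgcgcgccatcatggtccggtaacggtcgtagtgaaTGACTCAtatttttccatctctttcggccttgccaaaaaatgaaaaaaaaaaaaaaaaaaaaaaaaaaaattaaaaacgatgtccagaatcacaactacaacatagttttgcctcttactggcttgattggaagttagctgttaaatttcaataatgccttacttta
HSP42 had 2 overlapping matches of the heat shock element, which is searched for here as 3 units GAA and TTC in turn with NN between them. It also had 3 copies of the stress response element AGGGG. In DDR2 the stress response element stood 3 times on the other strand, as CCCCT. PUP2 held PACE, the Rpn4 motif GGTGGCAAA. NOP1 held PAC, the motif GATGAG, on the other strand as CTCATC, next to 2 overlapping matches of RRPE, AAAAATTTT, 1 on each strand. LEU9 held the Gcn4 motif TGACTCA. A match is a description of the letters and not a bound site, and motifs were searched on both strands.

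Heat changed most genes. The deposited counts summed to 74363542 to 79222134 per library at 50 °C and 51901045 to 64243572 at 30 °C. In edgeR's quasi-likelihood test at an adjusted p under 0.05, 4206 genes (69.9% of those tested) differed, 2031 (33.8%) being higher and 2175 (36.2%) lower at 50 °C, and in 4526 genes (75.2%) the libraries of the 2 temperatures did not overlap. At least 4-fold changes were called for 653 genes upwards (10.9%) and 816 downwards (13.6%). Values are CPM, each gene's counts per 1000000 counts of the library, scaled by TMM, ± is the SD of 3 libraries after a CPM value and the standard error after a log2 fold change, and all adjusted p-values are edgeR's. The median log2 fold change over all genes was -0.05. Scaling by library size alone, which sets each value against the library's whole total, shifted that median by -0.63 and left 28.1% of calls upwards in place of 48.3%. The measurement is relative: fewer cells, less RNA per cell and a change in total messenger RNA cannot be told apart here. The top 10 genes of a library took between 20.1% and 22.2% of its counts at 50 °C, against 13.1% to 18.2% at 30 °C. The 50 °C libraries were also the more variable, with a median SD of log2 CPM over genes of 0.258, against 0.174 at 30 °C.

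The largest rise was in HSP26 (YBR072W, chromosome II, 382030 to 382674), a small chaperone that keeps unfolded proteins from clumping. It had 49619.9, 29530.3 and 35305 CPM at 50 °C, against 5.34, 2.60 and 2.98 CPM at 30 °C, a log2 fold change of 13.35 ± 0.60 (adjusted p = 8.8e-08). The libraries of the 2 temperatures were far apart, and at 50 °C it was the most abundant RNA per length, with 44474 ± 6909 FPKM at 50 °C and 6.83 ± 3.24 FPKM at 30 °C. HSP12 (YFL014W, chromosome VI, 107256 to 107585), a small membrane-associated stress protein, had 5349, 4391 and 4722 CPM at 50 °C, against 1.74, 0.610 and 1.92 CPM at 30 °C (11.71 ± 0.58). SSA4 (YER103W, chromosome V, 364589 to 366517), the stress-inducible cytosolic Hsp70, had 65227, 47942 and 60336 CPM at 50 °C, against 41.3, 27.8 and 33.3 CPM at 30 °C (10.73 ± 0.41). Both genes were low in all 3 unheated libraries and high in all 3 heated ones. The 12 largest rises and falls were taken only from genes without overlap between temperatures, which held for 75.2% of all genes. The other 9 of the 12 largest rises were in BTN2 (9.66 ± 0.55), which sorts aggregated proteins, and in DDR2 (8.73 ± 0.48), SPI1 (8.59 ± 0.32), OPI10 (8.02 ± 0.33), SOL4 (7.99 ± 0.34), HSP82 (7.96 ± 0.36), HSP78 (7.72 ± 0.27), HSP42 (7.69 ± 0.25) and ROQ1 (7.52 ± 0.25), with adjusted p from 3.8e-08 to 3.2e-07.

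The largest fall was in SPO19 (YPL130W, chromosome XVI, 304387 to 305058), a meiosis-specific GPI-anchored protein, with 0, 0.0600 and 0 CPM at 50 °C, against 15.8, 10.4 and 15.3 CPM at 30 °C. A level of 3 counts corresponds to between 0.045 and 0.056 CPM in the 50 °C libraries, so 2 of the 3 heated libraries had no count and the third was near this floor. HXT2 (YMR011W, chromosome XIII, 288079 to 289704), a high-affinity glucose transporter, had 6.96, 7.48 and 5.84 CPM at 50 °C, against 908, 1393 and 1222 CPM at 30 °C (log2 fold change -7.44 ± 0.34, adjusted p = 8.8e-08). HXT3 (YDR345C, chromosome IV, 1162957 to 1164660), a low-affinity glucose transporter, had 48.2, 57.7 and 53.1 CPM at 50 °C, against 4028, 5344 and 4845 CPM at 30 °C (-6.48 ± 0.41). Neither transporter's libraries overlapped between temperatures, which the choice of the largest falls required. RRT5 (-6.53 ± 0.29) lay between these 2 transporters in size of fall. Next came the phosphate transporter PHO90 (-5.72 ± 0.26), PDH1 of the methylcitrate cycle (-5.42 ± 0.22), the drug and amino acid exporter AQR1 (-5.03 ± 0.28), the 60S assembly factor ERB1 (-4.91 ± 0.66), DHR2 (-4.82 ± 0.39), BAS1 (-4.77 ± 0.45), which activates purine genes, SSB2 (-4.76 ± 0.49) and UTP13 (-4.75 ± 0.43). Adjusted p over RRT5 and these 8 genes ran from 5.0e-08 to 8.0e-05.

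**Figure D1:**
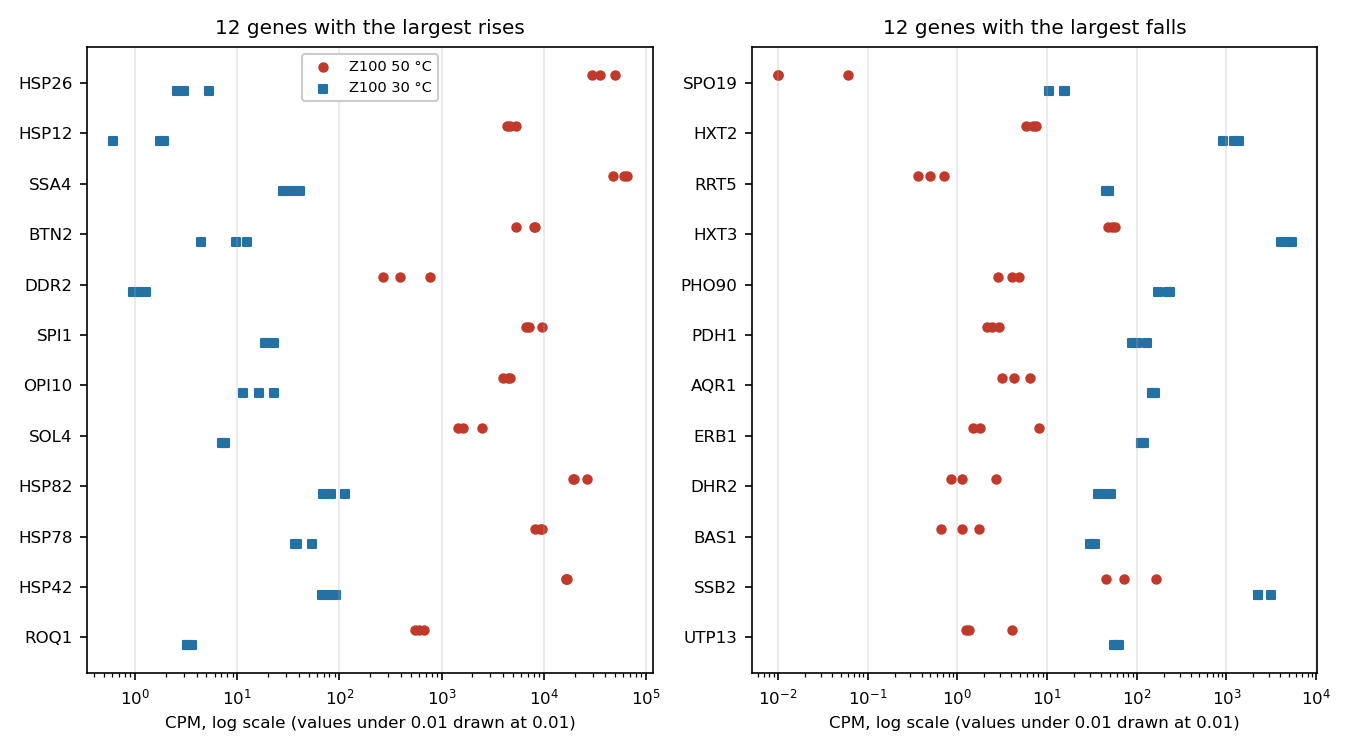
TMM-scaled CPM on a log axis (values under 0.01 drawn at 0.01) of the 12 genes with the largest rise and the 12 with the largest fall, each point being 1 Z100 library at 50 °C or 30 °C. Only genes whose 3 libraries of one temperature lie apart from the 3 of the other were eligible, so this separation follows from the choice. HSP26 spans the widest range, with 38152 ± 10343 CPM at 50 °C and 3.64 ± 1.49 CPM at 30 °C.

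Genes of cytosolic chaperones changed in both directions. All 8 genes of small heat shock proteins and aggregate sorting rose (median log2 fold change 7.52), and together they took 5.42, 5.11 and 5.27% of the counts at 50 °C, against 0.0335, 0.0241 and 0.0247% at 30 °C. HSP42 (YDR171W), which gathers misfolded proteins into deposits, had 16812, 16512 and 16396 CPM at 50 °C, against 79.6, 93.6 and 67.0 CPM at 30 °C. Of the 11 genes of the Hsp70 and Hsp110 systems 7 rose and 4 fell, the latter a share near the 36.2% of all genes. Together the 11 genes took 9.37, 8.58 and 9.25% of the counts at 50 °C, against 0.970, 1.03 and 0.869% at 30 °C. The genes that rose were SSA4, the stress-inducible SSA3 (5.65 ± 0.43), the exchange factor FES1 (6.40 ± 0.23), the stress-inducible Hsp110 SSE2 (6.38 ± 0.20) and its constitutive relative SSE1 (3.44 ± 0.18), and SSA1 (5.21 ± 0.34) and the constitutive SSA2 (4.15 ± 0.29), near-identical copies whose counts are less certain. Most of those that fell serve newly made chains at the ribosome. SSB1, a ribosome-bound Hsp70, had 80.03, 213 and 54.6 CPM at 50 °C, against 2527, 3573 and 2487 CPM at 30 °C (-4.62 ± 0.54), and its near-identical copy SSB2 changed by as much. Their partners SSZ1 (-2.55 ± 0.29) and ZUO1 (-2.68 ± 0.27), which form the ribosome-associated complex, fell with them, as did SNL1 (-1.65 ± 0.14), which tethers ribosomes and Hsp70 to the ER membrane. Adjusted p for these 5 genes ran from 3.8e-06 to 3.1e-05.

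The Hsp90 system, which matures kinases and receptors, changed both ways too, with 9 of 14 genes up, 3 down and a median of 1.93. HSP82 (YPL240C), the inducible Hsp90, had 26756, 19476 and 19957 CPM at 50 °C, against 112, 83.7 and 69.4 CPM at 30 °C. Its libraries did not overlap between temperatures, which the choice of the largest rises required. Its helpers CPR6 (6.17 ± 0.22), STI1 (5.41 ± 0.24) and HCH1 (4.22 ± 0.26) rose, while the phosphatase PPT1 (-3.82 ± 0.36), the essential co-chaperone CNS1 (-2.54 ± 0.29) and TAH1 (-1.33 ± 0.13) of the R2TP assembly complex fell. PIH1, the partner of TAH1, was not called (-0.26 ± 0.22, adjusted p = 0.32). Of 12 genes for Hsp104 and cytosolic J proteins 5 rose and 6 fell. HSP104 (YLL026W), the disaggregase that pulls proteins out of aggregates, had 25757, 22272 and 21622 CPM at 50 °C, against 284, 320.2 and 264 CPM at 30 °C (6.33 ± 0.25). The J proteins APJ1 (6.68 ± 0.22), SIS1 (6.13 ± 0.20) and YDJ1 (3.41 ± 0.17), which hand substrates to Hsp70, rose beside it. No gene of the chaperonin TRiC or of prefoldin rose, and 11 of 15 fell, among them CCT8 (-1.72 ± 0.16) and CCT7 (-1.64 ± 0.19). TRiC folds actin and tubulin. Its subunit CCT6 was not called (-0.18 ± 0.14, adjusted p = 0.25).

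**Figure D2:**
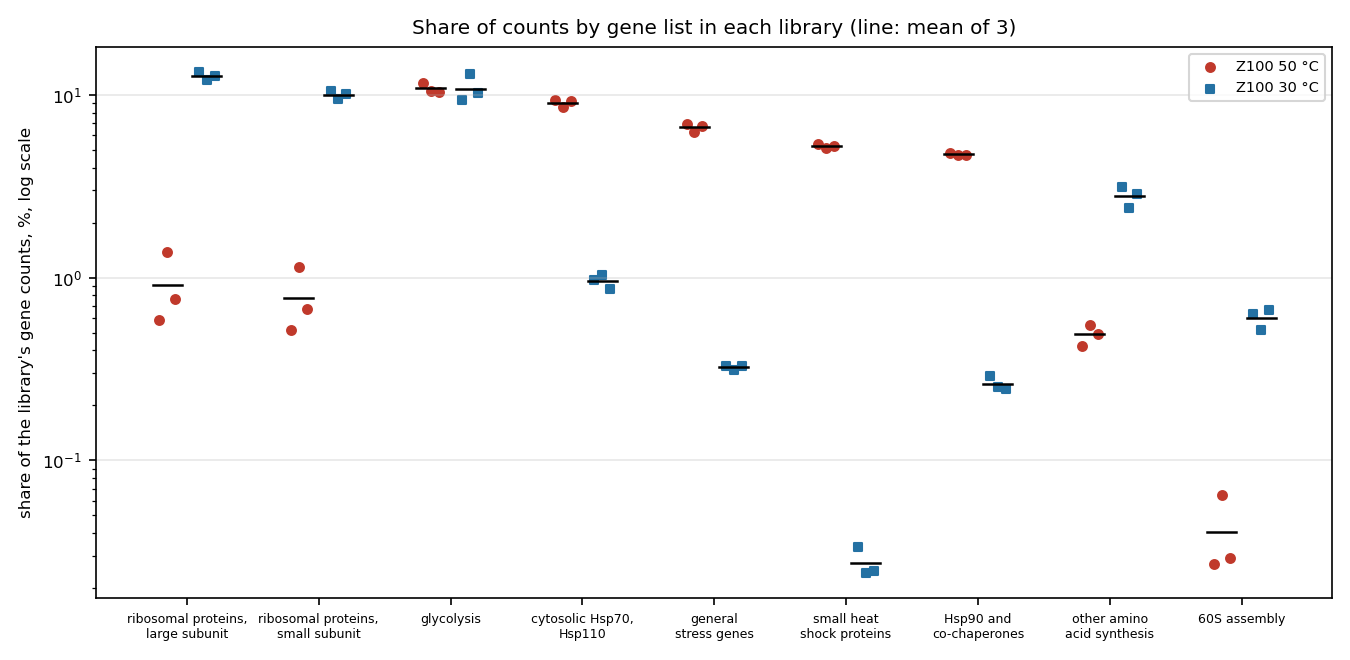
Percent of each library's gene counts (log axis) taken by 9 gene lists in the Z100 libraries, each point being 1 library at 50 °C or 30 °C and each short line the mean of 3. The 3 chaperone lists and general stress genes lie higher in every 50 °C library, ribosomal protein, 60S assembly and amino acid synthesis genes lie lower, and glycolysis genes overlap.

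In mitochondria, 6 of 16 chaperone and protease genes rose, a share near the 33.8% of all genes. Of the 16, 4 fell, against 36.2% of all genes. With library-size scaling 6 rose and 7 fell. Without Z100 50 °C replicate 2, and in the 6 Z100 libraries alone, 2 fell. HSP78 (YDR258C), the mitochondrial disaggregase, had 8154, 9263 and 9671 CPM at 50 °C, against 53.6, 38.5 and 36.6 CPM at 30 °C (7.72 ± 0.27). The J protein MDJ1 (5.29 ± 0.20) and both chaperonin genes, HSP60 (3.004 ± 0.41) and HSP10 (2.93 ± 0.23), rose with it. MGE1, the exchange factor of mitochondrial Hsp70, fell (-1.14 ± 0.20), and the protease gene PIM1 was not called (-0.13 ± 0.12). Genes of protein import into mitochondria went the other way, with 16 of 23 down and 2 up. TIM22 (-2.32 ± 0.15), TIM23 (-1.73 ± 0.26), TIM50 (-2.06 ± 0.18) and TOM20 (-2.18 ± 0.18), which build the membrane channels and their receptor, fell. MIA40 (1.00 ± 0.22) and TIM21 (0.80 ± 0.17) were the 2 that rose, and neither was called upwards under library-size scaling.

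In the ER, 14 of 19 folding genes rose and 3 fell. ERO1 (YML130C), the oxidase that supplies disulphide bonds, had 3271, 3789.8 and 3869 CPM at 50 °C, against 49.0, 55.6 and 46.8 CPM at 30 °C (6.17 ± 0.22). KAR2, the ER Hsp70, had 15519, 11906 and 12592 CPM at 50 °C, against 428, 482 and 407 CPM at 30 °C (4.92 ± 0.29). In both genes each heated library was far above the highest unheated one. MPD1, a disulphide isomerase (5.44 ± 0.20), and the exchange factor SIL1 (2.99 ± 0.17) also rose, while IRE1, the sensor of unfolded ER proteins, fell (-0.57 ± 0.15), and so did the lectin chaperone gene CNE1 (-0.86 ± 0.20). Of 16 genes of ER-associated degradation 8 rose and 3 fell, or 7 and 7 under library-size scaling. The ubiquitin ligase gene HRD1 (2.38 ± 0.15), NPL4 (2.05 ± 0.23) and CDC48 (1.72 ± 0.23), which extract marked proteins from the membrane, were among those that rose. SSM4, the other main ligase of this route, fell (-1.54 ± 0.14).

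Genes of protein degradation rose broadly, by smaller folds. Of 34 genes for the proteasome and its factor Rpn4, 32 rose, none fell and the median log2 fold change was 1.12; scaled by library size alone 11 rose and 1 fell. RPN4 (YDL020C), the transcription factor of these genes, had 1797, 1589 and 1761 CPM at 50 °C, against 138, 118 and 139.9 CPM at 30 °C (3.70 ± 0.18). PUP2 (YGR253C), a subunit of the 20S core whose promoter is printed above, had 157, 237 and 244 CPM at 50 °C, against 62.0, 56.3 and 56.6 CPM at 30 °C (1.87 ± 0.22). In both genes the 2 temperatures did not overlap. RPN12 (1.61 ± 0.27) and RPN5 (1.55 ± 0.20) of the regulatory lid rose, and PUP1 of the core was not called (-0.10 ± 0.16, adjusted p = 0.61). Among proteasome assembly and shuttle factors 11 of 17 rose and 1 fell, or 6 and 5 with library-size scaling. CUZ1 (4.12 ± 0.38) and TMC1 (3.03 ± 0.22), zinc-finger proteins that bind the proteasome, led this list and the assembly factor POC4 fell (-2.14 ± 0.19).

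Of 20 genes for ubiquitin and its quality-control enzymes 13 rose and 2 fell, or 10 and 6 with library-size scaling. UBI4 (YLL039C), the polyubiquitin gene, had 2698, 2292 and 3163 CPM at 50 °C, against 95.6, 72.1 and 82.7 CPM at 30 °C (5.02 ± 0.22). ROQ1, whose product redirects the ligase Ubr1, rose by more (7.52 ± 0.25). The conjugating enzyme genes UBC4 (3.42 ± 0.29) and UBC5 (-0.94 ± 0.20) went apart, although their products are close relatives. SAN1, a nuclear ligase for misfolded proteins, fell (-2.24 ± 0.26). Of 33 autophagy genes 20 rose and 4 fell, or 16 and 9 with library-size scaling, with ATG41 (6.11 ± 0.35), the cargo receptor gene ATG19 (3.18 ± 0.21) and ATG8 (2.75 ± 0.26), which coats autophagosomes, among those up and ATG5 (-1.18 ± 0.25) and ATG9 (-0.83 ± 0.19) among those down. All 13 genes of vacuolar proteases and their inhibitors rose. The inhibitor genes TFS1 (5.79 ± 0.45), PBI2 (4.56 ± 0.27) and PAI3 (4.42 ± 0.23) rose by more than PRB1 (1.75 ± 0.33), the protease B that PBI2 restrains.

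Of the regulators named in the background, HSF1, HAC1 and RPN4 rose, GCN4 fell, and MSN2 and MSN4 were not called. HSF1 had 333, 169 and 156 CPM at 50 °C, against 75.5, 99.6 and 69.8 CPM at 30 °C (1.43 ± 0.33, adjusted p = 0.0028) and HAC1 had 1962, 1274 and 1579 CPM at 50 °C, against 509, 773 and 523 CPM at 30 °C (1.42 ± 0.31, adjusted p = 0.0021). In both genes each heated library lay above each unheated one. MSN2 (0.16 ± 0.16, adjusted p = 0.39) and MSN4 (0.07 ± 0.28, adjusted p = 0.83) did not pass the test, and their libraries overlapped between temperatures. With library-size scaling MSN2 was called lower (-0.48, adjusted p = 0.030). GCN4 had 498, 479 and 494 CPM at 50 °C, against 2301, 1589 and 1809 CPM at 30 °C (-1.95 ± 0.21, adjusted p = 1.6e-05). These are RNA levels, and HAC1 and GCN4 are known to be controlled mainly after transcription. Over 36 stress regulator genes 22 rose and 6 fell. CIN5 (5.42 ± 0.49), a bZIP factor, SIP4 (5.18 ± 0.36), ADR1 (4.19 ± 0.28), an activator of glucose-repressed genes, and TYE7 (4.04 ± 0.28), an activator of glycolytic genes, rose most. IFH1, the coactivator of ribosomal protein genes, had 1.74, 3.36 and 2.78 CPM at 50 °C, against 44.5, 39.98 and 48.8 CPM at 30 °C (-4.08 ± 0.36), and TOD6, a repressor that binds PAC, fell as well (-3.92 ± 0.47).

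In the list for Ras, protein kinase A and TOR, 19 of 27 genes rose and 5 fell. IRA2, which switches Ras off, had 2813, 2025 and 2702 CPM at 50 °C, against 97.6, 90.1 and 96.4 CPM at 30 °C (4.73 ± 0.26). PDE1 (2.63 ± 0.27), which destroys cyclic AMP, rose. The TOR complex gene LST8 rose (6.03 ± 0.26), whereas RAS1 (-2.62 ± 0.24), the kinase gene SCH9 (-2.42 ± 0.19), which acts below TOR, and KOG1 (-0.95 ± 0.14), a core part of TOR complex 1, fell. CDC25, which switches Ras on, was not called (-0.01 ± 0.16). Of 27 genes of cell wall integrity and osmotic signalling 15 rose and 7 fell, with 10 and 9 under library-size scaling. SDP1 (4.18 ± 0.23), a phosphatase of the cell wall kinase Slt2, and ROM1 (4.09 ± 0.15), which activates Rho1, rose. The phosphatase genes PTP3 (-3.04 ± 0.16) and MSG5 (-2.68 ± 0.15) and the kinase gene BCK1 (-1.45 ± 0.25) fell.

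General stress genes rose nearly without exception, 31 of 32 at a median log2 fold change of 4.83. They took 6.97, 6.26 and 6.73% of the counts at 50 °C, against 0.328, 0.313 and 0.329% at 30 °C. DDR2 (YOL052C), whose promoter is printed above, had 767, 268 and 393 CPM at 50 °C, against 1.29, 1.11 and 0.952 CPM at 30 °C (8.73 ± 0.48). SPI1, a cell wall protein, had 9672, 6643 and 7224 CPM at 50 °C, against 19.3, 18.8 and 22.7 CPM at 30 °C (8.59 ± 0.32). HSP30, a plasma membrane protein that restrains the proton pump, had 24425, 21513 and 25300.0 CPM at 50 °C, against 212, 205 and 225 CPM at 30 °C (6.79 ± 0.23). HSP30 was far higher in each heated library than in any unheated one. For DDR2 and SPI1 the choice of the largest rises required such separation, which held for 75.2% of all genes. The exception was NCE103, carbonic anhydrase, which fell (-2.12 ± 0.28). TMA10 (7.11 ± 0.41), HOR7 (3.86 ± 0.22) and RGI1 (5.14 ± 0.21) joined HSP26, SSA4, HSP30, AHP1, SPI1, TDH3 and PGK1 as the 10 RNAs most abundant per length at 50 °C, where HOR7 had 19397 ± 3863 FPKM at 50 °C and 2080.4 ± 436 FPKM at 30 °C. At 30 °C the cell wall gene CCW12 was the most abundant, with 4828 ± 518 FPKM at 50 °C and 22516 ± 6487 FPKM at 30 °C.

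Genes of storage carbohydrates rose. Of 10 genes of trehalose, a sugar that protects proteins and membranes, 9 rose and none fell (median 4.01), and they took 3.25, 2.71 and 2.71% of the counts at 50 °C, against 0.216, 0.255 and 0.205% at 30 °C. TSL1, a subunit of the synthase, had 16232, 9533 and 10089.9 CPM at 50 °C, against 154, 185 and 161 CPM at 30 °C (6.16 ± 0.33). TPS1, the synthase itself, had 11530.0, 5823 and 6210.1 CPM at 50 °C, against 492, 923 and 464 CPM at 30 °C (3.65 ± 0.41). The precursor enzyme genes PGM2 (4.598 ± 0.25) and UGP1 (4.595 ± 0.19) and the trehalase gene NTH2 (4.33 ± 0.19), whose product degrades trehalose, rose too. So genes that make the sugar and genes that degrade it were both higher. Of 18 glycogen genes 15 rose and 1 fell, or 15 and 3 with library-size scaling: GSY2 (5.58 ± 0.20), the main glycogen synthase, PIG2 (5.55 ± 0.28) and GIP2 (4.64 ± 0.24), which direct a phosphatase to it, and the phosphorylase GPH1 (4.74 ± 0.29). For glycerol 8 of 14 rose and 3 fell, with GCY1 (5.29 ± 0.30), GPP2 (2.36 ± 0.24) and GPD1 (1.97 ± 0.28) up and GPP1 (-1.58 ± 0.20) down.

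Glucose carriers changed in both directions. Of 23 genes for hexose transporters and sensors 11 rose and 9 fell, the latter a share near the 36.2% of all genes. With library-size scaling 5 rose and 9 fell, where 1208 of all 6015 genes rose and 3087 fell. HXT1 (-4.73 ± 0.39), the low-affinity carrier of high glucose, HXT2, HXT3 and HXT4 (-3.85 ± 0.40) fell. HXT5 (3.34 ± 0.44), a carrier of slow-growing cells, rose. HXT6 (1.61 ± 0.25) and HXT7 (1.66 ± 0.24), high-affinity carriers that are near-identical copies and cannot be told apart with certainty, also rose. The first sugar kinases rose, HXK1 with 11515, 12283 and 12301 CPM at 50 °C, against 909.6, 1082 and 1025 CPM at 30 °C (3.58 ± 0.19) and GLK1 with 12816, 7081 and 7789 CPM at 50 °C, against 542, 930.1 and 694 CPM at 30 °C (3.68 ± 0.42). HXK2, the kinase that also acts in glucose repression, fell slightly (-0.46 ± 0.17, adjusted p = 0.035), a call that ended with RLE scaling (0.056) and without any of 5 single libraries (up to 0.12). Of 22 glycolysis genes 11 rose and 2 fell, or 8 and 9 with library-size scaling, and their share of counts overlapped: 11.7, 10.6 and 10.4% of the counts at 50 °C, against 9.34, 12.9 and 10.2% at 30 °C. TDH1 (5.997 ± 0.41), a stress form, and GPM2 (5.45 ± 0.21) led. The main enzymes ENO2 (-0.03 ± 0.38) and TDH3 (0.26 ± 0.36), which has a near-identical copy in TDH2, were not called.

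Downstream, 7 of 20 genes of ethanol and acetate metabolism rose and 8 fell, shares near the 33.8% and 36.2% of all genes. ALD3 (7.37 ± 0.47) and ALD2 (4.10 ± 0.35), cytosolic aldehyde dehydrogenases, and BDH1 (3.95 ± 0.36), butanediol dehydrogenase, rose. PDC5 (-2.55 ± 0.19), a minor pyruvate decarboxylase, and ALD6 (-2.08 ± 0.31), the main cytosolic source of acetate, fell. The main alcohol dehydrogenase gene ADH1 was not called (0.32 ± 0.29, adjusted p = 0.35). In gluconeogenesis and the glyoxylate and methylcitrate cycles 10 of 19 genes fell and 5 rose, or 14 and 3 with library-size scaling, and 3 rose without Z100 30 °C replicate 1. PCK1, the key step of gluconeogenesis, had 1.68, 2.27 and 1.95 CPM at 50 °C, against 23.6, 20.7 and 26.1 CPM at 30 °C (-3.58 ± 0.35). PDH1 had 2.89, 2.15 and 2.41 CPM at 50 °C, against 129.5, 101 and 88.0 CPM at 30 °C (-5.42 ± 0.22). PCK1 lay lower in each heated library, and for PDH1 the choice of the largest falls required this. CIT2 (-2.59 ± 0.36), a peroxisomal citrate synthase, and MAE1 (-2.59 ± 0.35), malic enzyme, fell with them.

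Respiratory genes rose more often than they fell. Of 37 genes for the respiratory chain and ATP synthase 24 rose and 2 fell (median 0.86), with 10 and 6 under library-size scaling. CYC7 (5.20 ± 0.28), the second cytochrome c, and COX5B (3.26 ± 0.18), the alternative subunit of cytochrome oxidase, rose, and the main forms CYC1 (-1.42 ± 0.21) and COX5A (-1.06 ± 0.15) fell. QCR8 of complex III also rose (2.22 ± 0.24). Of 22 tricarboxylic acid cycle genes 12 rose and 4 fell, or 4 and 9 with library-size scaling. CIT1 (2.44 ± 0.18), mitochondrial citrate synthase, rose, while the aconitase gene ACO1 was not called (-0.20 ± 0.16). For mitochondrial ribosomal proteins the count was 7 up and 24 down of 67, the latter a share near the 36.2% of all genes. With library-size scaling the count was 1 and 42, and 12 rose without Z100 50 °C replicate 1 or without XH7 50 °C replicate 2. Of 18 genes of the pentose phosphate pathway 10 rose and 4 fell, with 6 and 5 under library-size scaling. SOL4 (7.99 ± 0.34) and GND2 (5.88 ± 0.62) of its oxidative branch rose, and the phosphoribosyl pyrophosphate synthetase genes PRS1 (-3.11 ± 0.16), PRS3 (-3.07 ± 0.38), PRS4 (-2.85 ± 0.28) and PRS5 (-2.64 ± 0.17) fell.

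Many of these enzymes exist as a stress-related form and a form of growing cells. In all, 46 pairs of genes for 1 function were followed, not all of them of this kind. The value is the share of the first gene in the summed FPKM of both (counts per length and library total). This share was higher in every heated library than in every unheated one for 38 pairs, lower for 4 and overlapping for 4. The count is a description, since the pairs were chosen with earlier results of these data known. Some genes, such as SSA2 and HXK2, stand in more than 1 pair. By level of single genes, the libraries of the 2 temperatures did not overlap in 75.2% of all genes. For 9 pairs the first gene rose and its partner fell, for 15 both rose and for 3 both fell. The 9 include HXK1 and GLK1, each paired with HXK2, and the 15 include SOL4 with SOL3. The call of HXK2 ended with RLE scaling and without any of 5 single libraries. That of SOL3 ended with upper-quartile and library-size scaling and without any of 4 single libraries. For 1 pair the first gene fell and its partner rose, and in 18 pairs the 2 genes were not both called. Cytochrome c was one of the clearest: CYC7 made up 92.9, 92.6 and 92.8% at 50 °C, against 10.4, 9.49 and 15.2% at 30 °C. SOL4 made up 78.0, 75.1 and 73.3% at 50 °C, against 1.89, 1.99 and 1.80% at 30 °C of the pair with SOL3. SSA4 made up 75.5, 75.7 and 78.5% at 50 °C, against 3.74, 2.50 and 3.83% at 30 °C of the pair with SSA2. In these 3 pairs the minority form at 30 °C was the majority form in each heated library. The same exchange was seen in means for HSP82 over HSC82 (58.0 ± 2.49% at 50 °C and 7.93 ± 1.60% at 30 °C), GPP2 over GPP1 (68.4 ± 7.35% at 50 °C and 12.9 ± 2.62% at 30 °C) and COX5B over COX5A (57.3 ± 5.28% at 50 °C and 6.40 ± 1.04% at 30 °C). HXT5 over HXT3 varied more between heated libraries (83.4, 57.9 and 63.0% at 50 °C, against 0.263, 0.363 and 0.217% at 30 °C), with replicate 1 the highest. TDH1 stayed the minor form beside TDH3 (25.5 ± 2.36% at 50 °C and 0.662 ± 0.0724% at 30 °C). For the 2 trehalases the shares of NTH1 over NTH2 overlapped (86.1 ± 0.878% at 50 °C and 86.6 ± 0.350% at 30 °C). Ubiquitin conjugation ran the other way, with UBC5 over UBC4 at 0.617 ± 0.139% at 50 °C and 11.5 ± 3.42% at 30 °C, as did MDH2 over MDH1 at 7.86 ± 1.03% at 50 °C and 22.8 ± 0.845% at 30 °C.

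**Figure D3:**
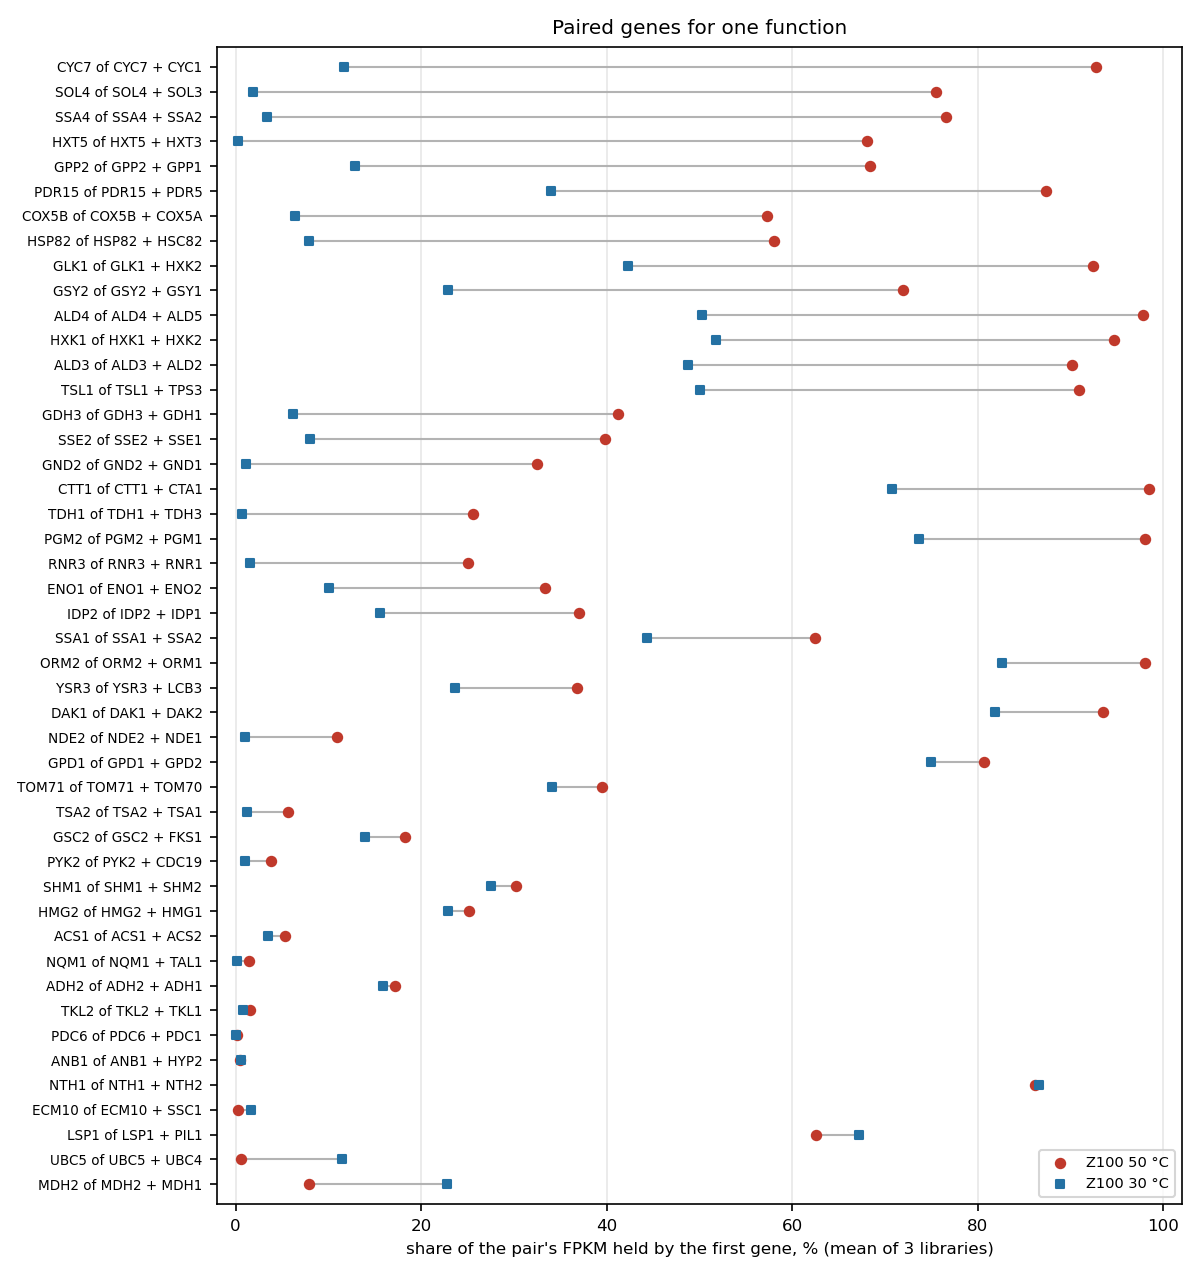
Share of the first-named gene in the summed FPKM of both genes for the 46 pairs, in percent, with the group mean at 50 °C and 30 °C joined by a line for each pair. CYC7, SOL4, SSA4, HXT5, GPP2, COX5B and HSP82 lie at 57.3% (COX5B) or more at 50 °C and at 12.9% (GPP2) or less at 30 °C.

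Lipid synthesis fell in its main routes. Of 17 genes of fatty acid synthesis 9 fell and 3 rose. OLE1 (YGL055W), the only fatty acid desaturase of this yeast, had 55.4, 94.0 and 68.6 CPM at 50 °C, against 1749, 1541 and 2095 CPM at 30 °C (-4.63 ± 0.29). FAS2, a subunit of fatty acid synthase, had 240.3, 255 and 179 CPM at 50 °C, against 1777, 2182 and 1808 CPM at 30 °C (-3.10 ± 0.21). Heated and unheated libraries did not overlap in either gene. The elongase genes ELO2 (-2.72 ± 0.27) and ELO3 (-2.66 ± 0.21) fell as well, and ETR1, of mitochondrial fatty acid synthesis, rose (2.57 ± 0.15). For ergosterol, the yeast sterol, 17 of 29 genes fell and 4 rose. ERG13 (-3.37 ± 0.23), ERG2 (-2.78 ± 0.19) and MVD1 (-2.57 ± 0.21) were the enzymes that fell furthest, while the sterol regulator genes UPC2 (2.78 ± 0.28) and ECM22 (1.14 ± 0.14) rose. Sphingolipid genes went both ways, 12 up and 8 down of 26, or 9 and 12 with library-size scaling: ORM2 (3.12 ± 0.27), a brake on the first step, the ceramidase genes YPC1 (2.79 ± 0.20) and YDC1 (2.52 ± 0.24) and the kinase gene LCB5 (2.32 ± 0.16) rose, and AUR1 (-2.83 ± 0.27), which makes inositol phosphoceramide, fell. Phospholipid and inositol genes numbered 13 up and 4 down of 30, or 7 and 15 with library-size scaling. In fatty acid oxidation and the peroxisome 13 of 32 rose, a share near the 33.8% of all genes, and 8 fell, or 4 and 11 with library-size scaling. The carnitine acetyltransferase gene CAT2 (4.24 ± 0.36) rose and the acyl-CoA synthetase gene FAA4 (-3.53 ± 0.22) fell.

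At the cell surface, 13 of 17 genes for membrane contacts and eisosomes (furrows of the plasma membrane) rose and 2 fell, or 8 and 3 with library-size scaling. Those that rose included FMP45 (5.51 ± 0.85), IST2 (2.76 ± 0.17) and NCE102 (2.73 ± 0.41). Of 33 genes for ion pumps and drug transport 15 rose and 10 fell, or 11 and 17 with library-size scaling. PDR15 (4.00 ± 0.24), a drug pump of stressed cells, the polyamine exporter genes TPO4 (3.66 ± 0.21) and TPO1 (3.61 ± 0.34) and the vacuolar calcium pump gene PMC1 (2.72 ± 0.16) rose, and the potassium importer gene TRK1 fell (-1.86 ± 0.15). Of 42 cell wall genes 14 rose and 15 fell, shares near the 33.8% and 36.2% of all genes, or 10 and 22 with library-size scaling. YGP1 (4.98 ± 0.26) and CWP1 (2.89 ± 0.22) rose, whereas SCW11 (-3.49 ± 0.34), SCW10 (-3.43 ± 0.45) and CIS3 (-3.16 ± 0.27) fell. Of the TIR, DAN and flocculin genes 11 of 18 fell and 1 rose, with FLO1 (-2.09 ± 0.26) and FLO9 (-2.57 ± 0.29) being near-identical copies. Of 40 secretion genes 12 rose and 6 fell by TMM, and 2 rose and 20 fell with library-size scaling.

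Of 36 antioxidant genes 22 rose and 4 fell, or 18 and 12 with library-size scaling, and 2 fell without any of 6 single libraries. CTT1 (YGR088W), cytosolic catalase, had 4142, 2807 and 2730.0 CPM at 50 °C, against 105, 100.4 and 116 CPM at 30 °C (4.91 ± 0.25). AHP1, a thiol peroxidase, had 11243, 8419 and 9954 CPM at 50 °C, against 790.3, 777 and 631 CPM at 30 °C (3.75 ± 0.25). Both were higher in each heated library. GRX1 (4.74 ± 0.26), a glutaredoxin, and GPX1 (4.71 ± 0.39), a glutathione peroxidase, rose, and the thioredoxin gene TRX1 fell (-0.77 ± 0.19). Of 33 iron genes 14 fell and 9 rose, shares near the 36.2% and 33.8% of all genes, or 23 and 3 with library-size scaling. Of 17 copper and zinc genes 11 fell and 5 rose, or 12 and 3. The high-affinity iron importer genes FTR1 (-3.36 ± 0.30) and FET3 (-2.93 ± 0.23) and the siderophore carrier gene SIT1 (-3.27 ± 0.25) fell, while CTH1 (4.04 ± 0.25), which binds and destabilises messenger RNA, and the mitochondrial iron carrier gene MRS4 (2.32 ± 0.21) rose. The metallothionein gene CRS5 rose (2.81 ± 0.36).

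Genes for making ribosomes fell as a block. Of 79 genes of the large ribosomal subunit 76 fell and 1 rose, and all 57 of the small subunit fell, at medians of -2.96 and -2.91. The large-subunit genes took 0.587, 1.39 and 0.760% of the counts at 50 °C, against 13.3, 12.1 and 12.8% at 30 °C. The small-subunit genes took 0.516, 1.14 and 0.672% of the counts at 50 °C, against 10.5, 9.48 and 10.2% at 30 °C. Among the heated libraries replicate 2 had the highest share in both sets, and each heated library was far below each unheated one. RPL3 (YOR063W) had 242, 486 and 201 CPM at 50 °C, against 6005, 8559 and 6531 CPM at 30 °C (-4.51 ± 0.44). RPS31, a fusion of ubiquitin and a ribosomal protein, had 520.2, 739 and 552 CPM at 50 °C, against 5283, 6262 and 5636 CPM at 30 °C (-3.25 ± 0.30). Every heated library lay below every unheated one in these 2 genes. The gene that rose was RPL15B (1.30 ± 0.16), a paralogue of RPL15A, with 106 ± 11.9 CPM at 50 °C and 42.8 ± 6.86 CPM at 30 °C. RPL9B (-0.35 ± 0.19, adjusted p = 0.12) and RPL39 (-1.20 ± 0.55, adjusted p = 0.074) were not called.

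Ribosome assembly genes fell at larger medians, and the difference between lists was not tested. All 57 genes of 60S assembly fell (median -3.56), and of 53 genes of the small-subunit processome 50 fell and 1 rose (median -3.52). ERB1 had 1.77, 8.09 and 1.49 CPM at 50 °C, against 111, 112 and 120.4 CPM at 30 °C (-4.91 ± 0.66). NOP1 (YDL014W), fibrillarin, which methylates ribosomal RNA and whose promoter is printed above, had 23.8, 59.8 and 13.0 CPM at 50 °C, against 687, 1060.0 and 829 CPM at 30 °C (-4.74 ± 0.53). In NOP1 the lowest unheated library was far above the highest heated one. For ERB1 the choice of the largest falls required such separation. DHR2 (-4.82 ± 0.39), UTP13 (-4.75 ± 0.43), PWP2 (-4.59 ± 0.58), NOG2 (-4.66 ± 0.36), DBP2 (-4.63 ± 0.49) and NIP7 (-4.57 ± 0.56) fell on the same scale. The gene that rose was RIO1 (1.77 ± 0.22), a kinase of late 40S maturation, and RCL1 was not called (-0.01 ± 0.19). Of 15 RNA polymerase I genes 12 fell and none rose, with RPA190 (-4.42 ± 0.52) and RPA135 (-3.53 ± 0.33), the 2 largest subunits, among them. In the RNA polymerase III list, enzyme subunit genes such as RPC53 (-4.08 ± 0.53), RPC82 (-3.92 ± 0.30) and RPO31 (-2.81 ± 0.17) fell, 11 of 19 in all, and TFC1, an initiation factor gene, was among the 11. The 6 that rose included the initiation factor genes BRF1 (1.45 ± 0.16), TFC8 (1.34 ± 0.16) and TFC7 (0.99 ± 0.13), the last not called with library-size scaling. With library-size scaling 2 genes of this list were called upwards.

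Translation followed. Of 39 initiation and elongation genes 34 fell and 1 rose, and all 21 aminoacyl-tRNA synthetase genes fell (medians -1.80 and -2.52). YEF3, elongation factor 3, had 116, 303 and 76.0 CPM at 50 °C, against 3736, 3892 and 3722 CPM at 30 °C (-4.52 ± 0.50). FUN12 (-3.84 ± 0.31), which joins the subunits, TIF4631 (-3.36 ± 0.22), a part of the cap-binding complex, and the synthetase genes DED81 (-3.45 ± 0.25) and CDC60 (-3.10 ± 0.28) fell. The gene that rose was EFB1 (1.43 ± 0.23), which overlaps the small nucleolar RNA gene SNR18. PAB1, the poly(A)-binding protein, fell (-3.37 ± 0.30), while the decay factor genes EDC2 (4.28 ± 0.17) and DHH1 (2.58 ± 0.14), a P body helicase, rose. Of 32 decay genes 13 fell, a share near the 36.2% of all genes, and 6 rose. With library-size scaling the count was 19 and 3, and 10 rose without XH7 50 °C replicate 2. Of 48 splicing genes 25 fell and 4 rose, or 35 and 2 with library-size scaling, SNU13 (-3.96 ± 0.44), PRP16 (-3.17 ± 0.21) and PRP43 (-3.09 ± 0.44) being among those down. PRP46 (3.86 ± 0.23) was the largest rise of that list.

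Building-block synthesis was lower. Of 61 genes in the main amino acid list 48 fell and 4 rose, with a median of -2.19. ILV3 had 30.9, 61.0 and 21.1 CPM at 50 °C, against 944, 849 and 955 CPM at 30 °C (-4.604 ± 0.38), and LEU9 (YOR108W), whose promoter is printed above, had 10.6, 25.1 and 8.45 CPM at 50 °C, against 327, 259 and 269 CPM at 30 °C (-4.27 ± 0.45). These act in the branched-chain pathway, and no heated library reached an unheated one. ARO4 (-4.67 ± 0.49), the entry to aromatic amino acids, and ILV5 (-4.15 ± 0.34) also fell. The 4 that rose were ARO9 (3.75 ± 0.30) and ARO10 (2.83 ± 0.53), which degrade aromatic amino acids, GDH3 (1.63 ± 0.45), the glutamate dehydrogenase of non-fermentative growth, and LYS14 (0.71 ± 0.18), a regulator of lysine synthesis that was not called with library-size scaling. For arginine 9 of 13 fell and 2 rose, led by ARG1 (-4.30 ± 0.32) and ARG7 (-3.22 ± 0.28), and ARG82 (3.19 ± 0.22), a regulator and inositol phosphate kinase, rose. In sulphate assimilation and methionine synthesis 15 of 34 fell and 6 rose, or 22 and 4 with library-size scaling, SAM1 (-3.26 ± 0.28) and MET6 (-2.36 ± 0.20) down and MET28 (3.51 ± 0.25), a regulator of the pathway, up. Of 32 purine and pyrimidine genes 27 fell and 4 rose, or 28 and 1 with library-size scaling, and 2 rose when 50 °C replicate 1 of Z100 or its 30 °C replicate 1 or 3 was left out. They included IMD4 (-4.34 ± 0.39), FCY2 (-4.09 ± 0.29) and ADE5,7 (-4.05 ± 0.40) falling and ADE16 (2.48 ± 0.20) rising. No thiamine or vitamin B6 gene rose and 18 of 25 fell. Of 27 phosphate genes 10 fell, a share near the 36.2% of all genes, and 7 rose, or 15 and 3 with library-size scaling. PHO90 had 2.87, 4.92 and 4.08 CPM at 50 °C, against 173, 232 and 221 CPM at 30 °C (-5.72 ± 0.26) and PHO84, the high-affinity carrier, fell (-3.65 ± 0.32), while PHM8 (5.69 ± 0.27), a phosphatase, rose. Among 39 genes of nitrogen permeases and GATA regulators 16 fell, a share near the 36.2% of all genes, and 6 rose. The ammonium carrier gene MEP3 (-2.55 ± 0.18) fell and the glutamate decarboxylase gene GAD1 (5.34 ± 0.41) rose.

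Of 31 cell cycle genes 13 fell, a share near the 36.2% of all genes, and 5 rose, or 18 and 3 with library-size scaling. ASH1 (-4.46 ± 0.30), a daughter-cell repressor, and the G1 cyclin genes PCL1 (-3.37 ± 0.38) and CLN2 (-2.22 ± 0.26) fell, CDC28 (1.83 ± 0.19), the main cell cycle kinase, rose, and CLN3 was not called (-0.22 ± 0.26). In DNA replication and damage 18 of 40 fell and 13 rose, the latter a share near the 33.8% of all genes, with 24 and 7 under library-size scaling. RNR1 (-1.87 ± 0.26) and POL1 (-2.30 ± 0.32) fell, and RNR3 (2.57 ± 0.36), its damage-induced paralogue, rose, as did the photolyase gene PHR1 (2.74 ± 0.14). Of 11 histone genes 6 rose and 2 fell, but 1 rose under library-size and also under upper-quartile scaling, and without 30 °C replicate 2, 30 °C replicate 3 or 50 °C replicate 3 of Z100 the count was 1, 2 and 2 in turn. Actin and polarity genes stood at 19 up and 7 down of 36, or 8 and 12 with library-size scaling. The mating and sporulation genes, which would mark other cell states, were low: they took 0.053% and 0.028% of the counts on average at 50 °C, against 0.051% and 0.038% at 30 °C. Of 31 mating genes 5 rose and 9 fell, or 4 and 20 with library-size scaling, and of 32 sporulation genes 7 rose and 8 fell, or 3 and 12. Among 12 genes often used as references in quantitative PCR, 3 rose and 4 fell. ACT1 rose (0.65 ± 0.17), PGK1 rose (1.11 ± 0.33), TAF10 fell (-0.89 ± 0.15), TFC1 fell (-0.84 ± 0.14), TUB1 fell (-0.80 ± 0.22) and FBA1 was not called (-0.10 ± 0.25). No gene of this list was called upwards when scaled by library size alone.

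**Figure D4:**
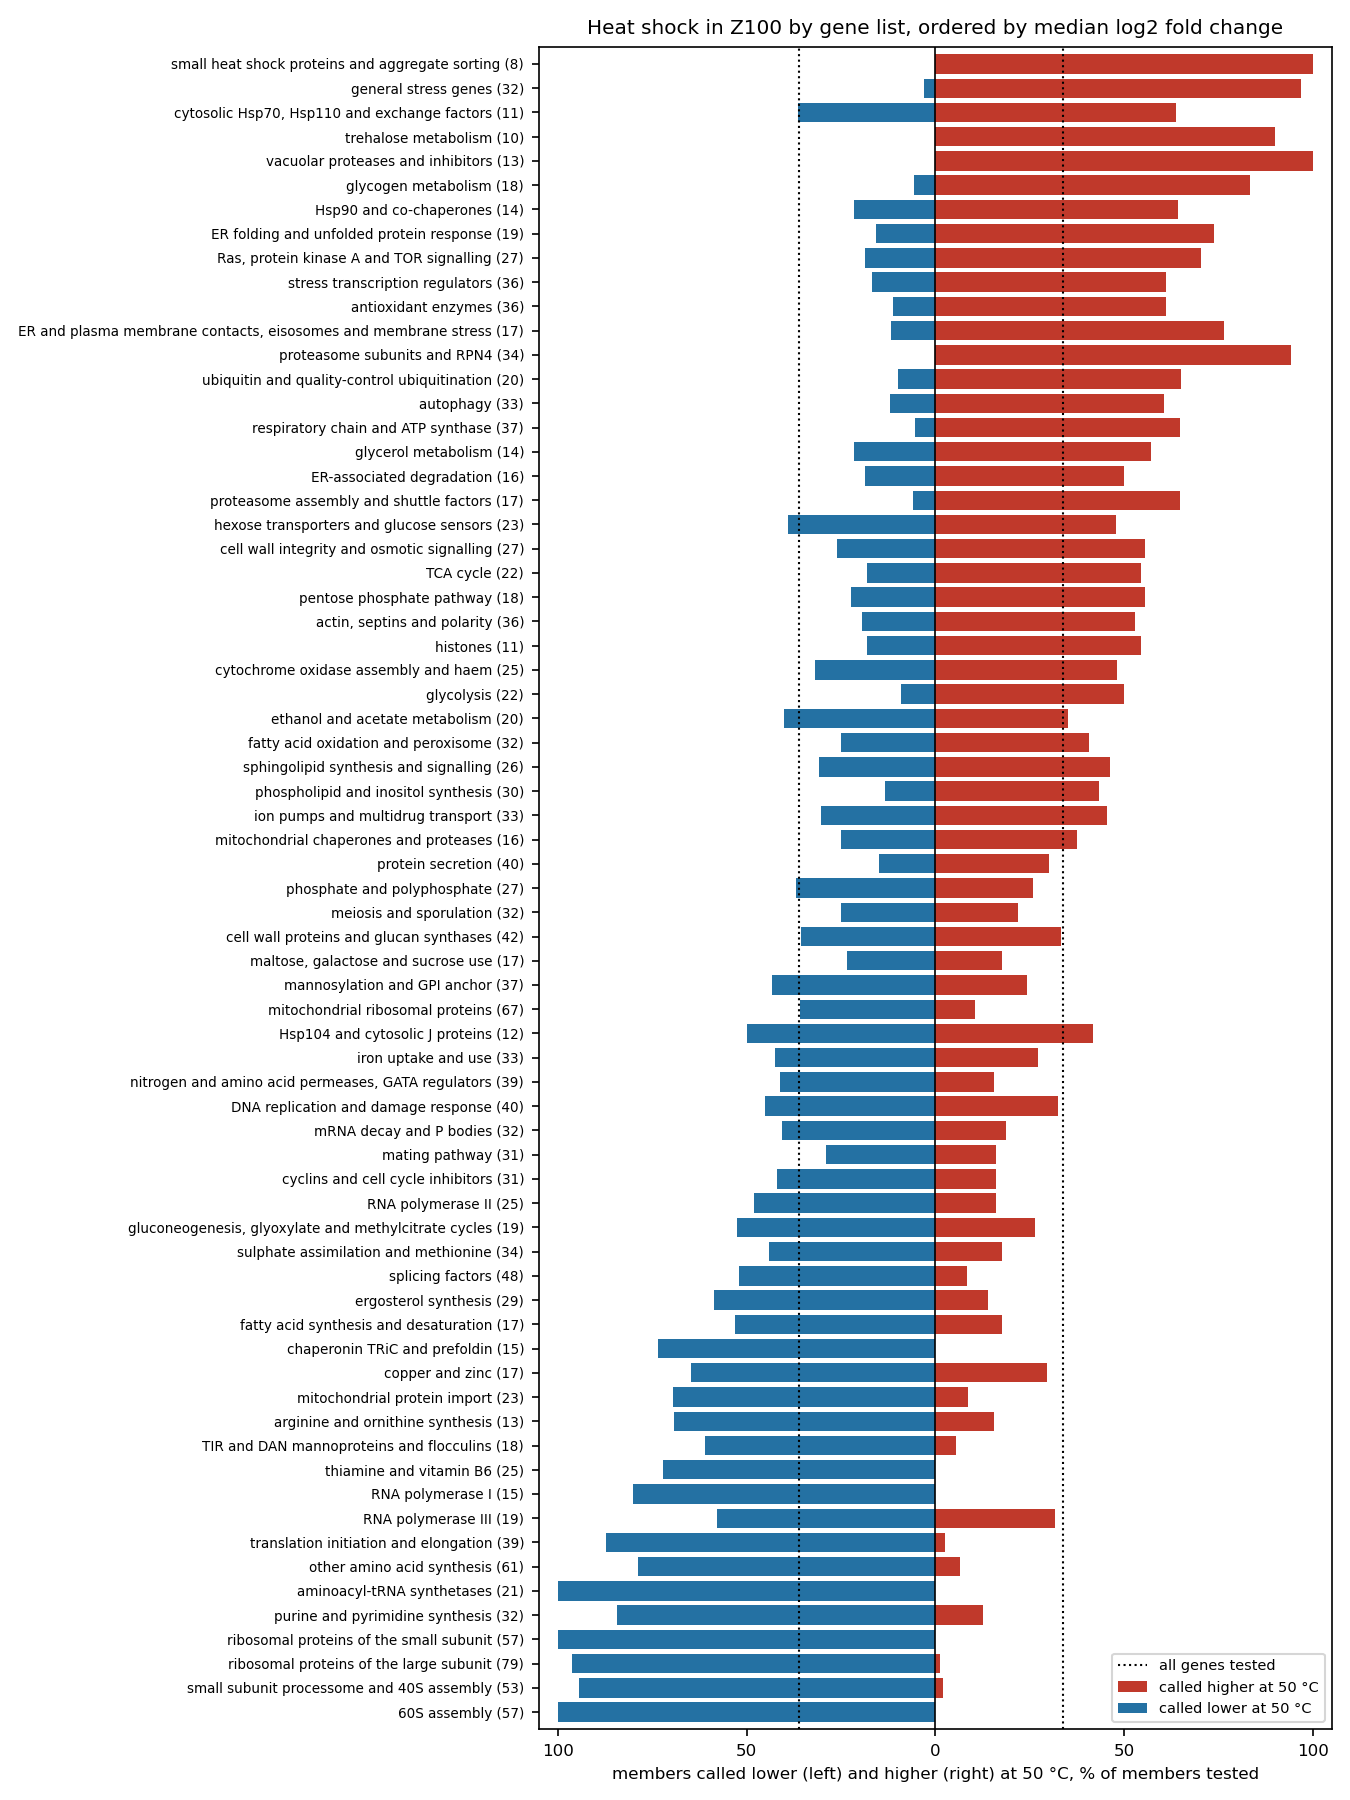
For 69 gene lists, the percent of tested members called higher (right) and lower (left) at 50 °C in Z100, with dotted lines at the share over all genes tested, 33.8% higher and 36.2% lower. Lists are ordered by median log2 fold change, from small heat shock proteins (7.52) at the top to 60S assembly (-3.56) at the bottom.

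Level and kind of gene were related to the change as well. When genes were ranked by CPM at 30 °C and cut into 4 equal classes, in the lowest class 595 rose and 301 fell (median 0.37), and in the highest class 394 rose and 779 fell (median -0.58). The level at 30 °C is also a term of the fold change, so this order is a description. Protein-coding genes without a symbol rose more often than they fell, 270 and 166 of 673. Of 86 Ty transposon genes, which are near-identical copies of each other and less certain, 39 rose and 26 fell. Of 11 genes of the mitochondrial genome 3 rose and none fell at a median of 1.52, against 33.8% and 36.2% of all genes. Counts from this genome were scarce. Its largest share in a Z100 library was 0.00089% (50 °C replicate 2) and its smallest was 0.00029% (30 °C replicate 1). The median of these 11 genes therefore rests on very low counts. Mitochondrial RNAs of this yeast carry no poly(A) tail and the libraries were made from poly(A) RNA; the part of this in the result was not tested.

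Promoter motifs followed the same division in the 5888 protein-coding genes with a full window of 300 bases before the start codon. The stress response element stood in 47.5% of promoters of genes called higher by at least 4-fold (n = 629), in 10.6% of those called lower by at least 4-fold (n = 811) and in 22.2% of all. With 2 or more copies, 146 of 205 genes rose and 25 fell. The 3-unit heat shock element is rarer: 3.34% of the 4-fold higher genes held it, 0.740% of the lower and 0.866% of all, and 11.8% of the 76 genes called higher by at least 32-fold. PAC stood in 41.9% of the 4-fold lower promoters, against 14.0% of the higher and 19.0% of all, and of 173 promoters with 2 or more copies 139 belonged to genes that fell. RRPE stood in 26.1% of the 4-fold lower promoters, against 2.54% of the higher and 7.42% of all. As a comparison motif the TATA core TATAAA had 44.9% among the lower genes, 49.9% among the higher and 48.1% of all.

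By list, the stress response element stood in 24 of 32 general stress promoters and PACE in 27 of 34 proteasome promoters. PAC stood in 98 and RRPE in 74 of 110 ribosome assembly promoters, and the Gcn4 motif in 34 of 108 amino acid synthesis promoters. Over all genes PACE stood in 1.21% and the Gcn4 motif in 2.63% of promoters. The 3-unit heat shock element stood in 7 of 45 cytosolic chaperone promoters, against 0.866% of all. It stood in 0 of 32 general stress promoters and in 4 of 136 ribosomal protein promoters. A looser pattern needs only 2 units, GAA and TTC in either order with NN between them. This pattern stood in 28 of 45 cytosolic chaperone promoters, 7 of 32 general stress promoters and 22.4% of all. Among 4-fold higher and lower genes the looser pattern stood in 28.0% and 23.7% of promoters. Ribosomal protein genes, which fell too, held PAC in 16 of 136 promoters. Of the 71 genes with PACE 53 rose and 6 fell. Of the 155 with the Gcn4 motif 38 rose and 80 fell. Among the 12 largest rises 9 held a stress response element and 3 a heat shock element (OPI10, HSP78 and HSP42). HSP26 and BTN2 held neither in this window, which says only that these letters are not within 300 bases. With a window of 500 bases the stress response element stood in 61.4% of the higher, 22.4% of the lower and 34.2% of all promoters. These motifs were defined on such genes in earlier work of the field, neighbouring genes can share a window, and no test was made.

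**Figure D5:**
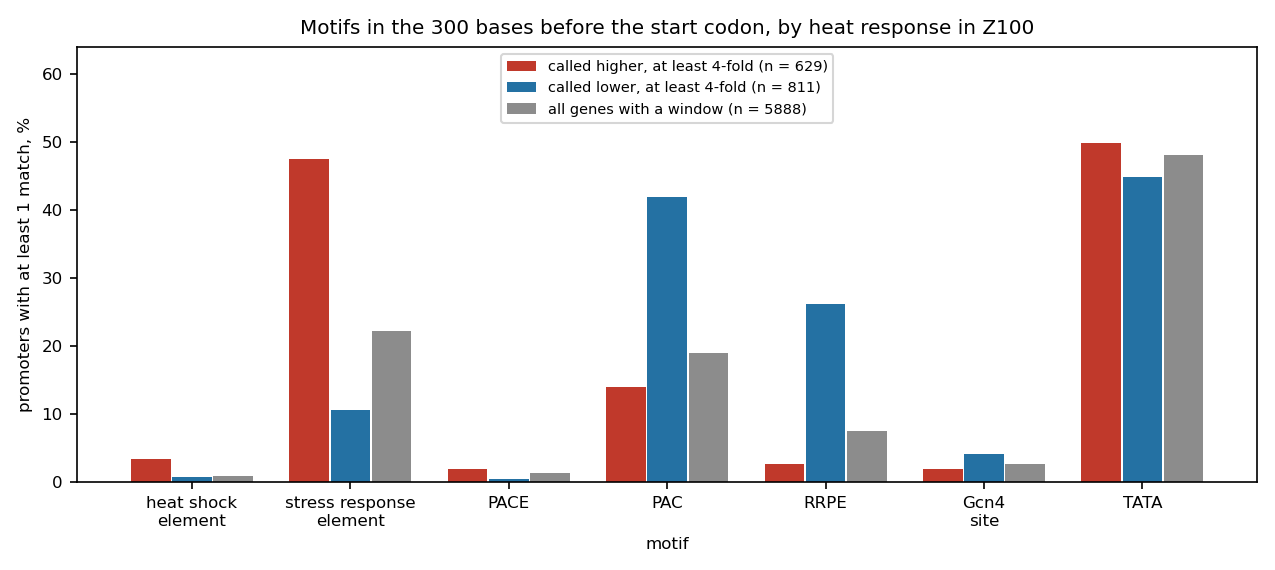
Percent of promoters (300 bases before the start codon) with at least 1 match of each motif, for genes called higher by at least 4-fold at 50 °C (n = 629), genes called lower by at least 4-fold (n = 811) and all 5888 genes. The stress response element is most frequent among the higher genes and PAC and RRPE among the lower ones, while the TATA core differs little.

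The heat response of Z100 was also set against that of XH7 by the difference of the 2 log2 fold changes, tested in the same model. It was called for 257 genes (4.27% of those tested), positive in 98 (1.63%) and negative in 159 (2.64%). This count rested on single libraries. Without XH7 50 °C replicates 1 and 2 in turn it was 137 and 1065, and without XH7 30 °C replicates 1 and 2 it was 22 and 2. Without Z100 50 °C replicates 1 and 3 it was 432 and 87, and without Z100 30 °C replicates 1 and 3 it was 114 and 57, so the genes below are named as values of these 10 libraries. Negative differences included TSL1 (log2 fold change 6.16 ± 0.33 in Z100 and 9.34 ± 0.47 in XH7, difference -3.18 ± 0.43), GSY1 (2.42 ± 0.23 in Z100 and 5.46 ± 0.33 in XH7, difference -3.04 ± 0.36) and IGD1 (2.56 ± 0.29 in Z100 and 6.40 ± 0.43 in XH7, difference -3.84 ± 0.46), an inhibitor of glycogen debranching. These rose in Z100 by less. In HXT2 (-7.44 ± 0.34 in Z100 and -4.05 ± 0.35 in XH7) and HXT3 (-6.48 ± 0.41 in Z100 and -2.75 ± 0.42 in XH7) the fall was deeper in Z100. ICL2, a methylcitrate cycle gene, was called in opposite directions (-2.15 ± 0.29 in Z100 and 1.68 ± 0.36 in XH7, difference -3.84 ± 0.46, adjusted p = 0.0058), and so was the amino acid permease gene AGP1 (-1.70 ± 0.19 in Z100 and 0.94 ± 0.23 in XH7). The positive differences were led by CUR1 (7.34 ± 0.42 in Z100 and 4.82 ± 0.46 in XH7, difference 2.52 ± 0.51, adjusted p = 0.026), a sorting factor for misfolded proteins. PEA2 (3.08 ± 0.16 in Z100 and 1.25 ± 0.18 in XH7) and SNM1 (1.99 ± 0.18 in Z100 and 0.12 ± 0.21 in XH7) followed. MOD5, RAD7, ORC1, RKR1 and UFO1 rose in Z100 and fell in XH7, but with library-size scaling none of the 5 was called in Z100, where RKR1 had a log2 fold change of -0.02. In all, 14 genes rose in Z100 and fell in XH7 and 14 fell in Z100 and rose in XH7.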

How the data were processed

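Per the labels, RNA was taken with TRIzol, messenger RNA was isolated by its poly(A) tail, and libraries were made with a NEBNext Ultra kit and read on a NovaSeq 6000; the authors' software for alignment and counting is not given in the sources used here. Since the kit does not mark strand, reads of overlapping genes on opposite strands cannot be told apart. The authors deposited raw counts per gene for 6059 genes, which were used for every test, and 3 further lines are empty and not analysed here. The authors also deposited FPKM values (counts per gene length and library total), used for levels between genes.

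The test was edgeR's (version 4.0.16, with limma 3.58.1 in R 4.3.3). TMM scaling and filterByExpr kept 6015 genes, and a quasi-likelihood F test compared 4 group means fitted to all 10 libraries, with Benjamini-Hochberg adjustment over all 6015 genes and a call at an adjusted p under 0.05. A standard error is the fold change (log2) over √F. The common biological coefficient of variation, 0.238, had 6 residual degrees of freedom. No pair of replicates within the Z100 groups agreed within counting noise; the XH7 pairs were not compared. A floor of 3 counts covers counting error only. By deposited position 6034 genes matched R64, 260 overlap another gene, and 333 share at least 95% identity with another gene across 50% or more of their length (BLAST 2.17.0).

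The comparison, the 70 gene lists, the 46 pairs and the rule for named genes were chosen with earlier results of these data known, and lists carry no test. Genes named are the 12 largest rises and falls (at least 10 CPM in the higher group, no overlap), up to 4 called members of a list in each direction and up to 2 not called, both members of the pairs, the 10 most abundant RNAs at each temperature, reference genes, the 8 largest differences between strains in each direction, up to 6 genes of each opposite kind and 6 regulators. RPL15A, TDH2 and SNR18 are named beside others for their relation to them. Some members that the rule selects are not reported here.

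Alternatives were RLE, upper-quartile and library-size scaling, no filter and a filter of 5 CPM, DESeq2 1.42.0, limma-voom, limma on log2 FPKM, the 6 Z100 libraries alone, the replicate number as a block, leaving out the most abundant 1% of genes, and leaving out each library in turn. The procedure was tested on simulated data, where more calls were false than the threshold allows and most changes of the smallest size simulated were missed. Tables and figures were made in Python 3.11.15 with pandas 2.3.3 (numpy 2.4.6) and matplotlib 3.10.9.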

Additional observations from a re-analysis of the deposited data

Results flagged for a closer look

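The difference between the heat responses of Z100 and XH7 passed edgeR's test in 257 genes, and the genes below are those of them that the report names. Each value is the log2 fold change with heat in Z100 minus that in XH7, with its standard error, from 3 libraries a temperature in Z100 and 2 in XH7.

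Positive differences were seen in CUR1 (2.52 ± 0.51), PEA2 (1.84 ± 0.23), SNM1 (1.88 ± 0.27) and RIO1 (1.75 ± 0.34). The J protein gene YDJ1 (1.25 ± 0.25), the Hsp110 gene SSE1 (1.24 ± 0.26), the ER oxidase gene ERO1 (1.43 ± 0.28), GPM2 (1.37 ± 0.27) and ETR1 (1.08 ± 0.23) followed. Among the genes that rose in Z100 and fell in XH7 were MOD5 (1.67 ± 0.24), RAD7 (1.62 ± 0.30), ORC1 (1.57 ± 0.23), RKR1 (1.47 ± 0.24) and UFO1 (1.44 ± 0.21).

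Negative differences included stress and storage genes: HSP42 (-1.82 ± 0.30), HSP30 (-2.47 ± 0.29), RGI1 (-1.20 ± 0.28), AHP1 (-1.80 ± 0.36), TSL1 (-3.18 ± 0.43), PGM2 (-2.03 ± 0.34), GSY1 (-3.04 ± 0.36), GPH1 (-2.11 ± 0.39) and IGD1 (-3.84 ± 0.46). In sugar uptake and its first steps they were HXT2 (-3.39 ± 0.41), HXT3 (-3.73 ± 0.53), HXT4 (-3.01 ± 0.57), HXK1 (-1.44 ± 0.27) and GLK1 (-2.59 ± 0.61). In the routes of carbon use they were PCK1 (-3.87 ± 0.52), PDH1 (-3.42 ± 0.30), ICL2 (-3.84 ± 0.46), CIT2 (-2.32 ± 0.55) and COX5A (-1.65 ± 0.24). The remaining negative values were those of AGP1 (-2.64 ± 0.30), ARG1 (-2.22 ± 0.44), GAD1 (-2.43 ± 0.54), MEP3 (-2.26 ± 0.27), FTR1 (-1.87 ± 0.43), FET3 (-2.14 ± 0.35), SIT1 (-2.60 ± 0.37), MSG5 (-0.95 ± 0.22) and CIS3 (-1.65 ± 0.40). Of all these genes only PDH1 was still called in each of the 10 fits that left out 1 library (highest adjusted p 0.029, edgeR), and RGI1 was called in 1 of them (up to 0.25).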

How the results depend on the processing

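With the main settings 4206 genes were called, and every alternative gave between 3837 and 4415. The split by direction moved with scaling: 1208 genes were higher with library-size scaling, 1204 with limma on log2(FPKM + 1) and 1206 on log2(FPKM + 0.1), against 2031 by TMM, while RLE gave 2120, upper-quartile scaling 1799 and DESeq2 2195. Leaving out each library in turn gave 3837 to 4415 calls, 1841 to 2219 of them higher and 1996 to 2277 lower. The count for the difference between the heat responses was 257 and moved most: 841 with DESeq2, 152 with the replicate block and all 10 libraries, and 2 to 1065 with 1 library left out. Same-numbered Z100 libraries had correlations of -0.12, -0.11 and 0.14 in their deviations from the group means. Libraries of unlike number had -0.17 to 0.21. With deviations from means of 3 libraries, these values cannot tell whether the numbers pair the samples. With the replicate block in the 6 Z100 libraries 3958 genes were called with heat, and in all 10 libraries 4224. Direction turned with library-size scaling and with limma on log2(FPKM + 1) and log2(FPKM + 0.1) for RKR1 (-0.021, -0.0017 and -0.00025), SOL3 (-0.012, -0.0129 and -0.0129) and MSN2 (-0.482, -0.467 and -0.484, past the threshold in each, and not called by TMM). SOL3 was also not called without any of 4 single libraries (adjusted p up to 0.078, edgeR). The cause of these shifts was not tested.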
